A study of Arabidopsis thaliana with 8 samples.

Results

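AT4G27280, which encodes an EF-hand protein, and AT2G41090, which encodes a calmodulin-like protein, were followed through a cold treatment of whole Arabidopsis thaliana plants. Both were found through the annotation that pairs probe sets with genes. Each has 1 unshared probe set, 253915_at for AT4G27280 and 267076_at for AT2G41090. A probe set counts as unshared here if its annotation holds a single gene symbol entry, and all others were left out when genes were looked up. Whether a left-out entry names several genes or 1 gene by several symbols was not examined. The pair are 2 of the 13350 genes that the annotation pairs with at least 1 unshared probe set. The pair was chosen with their signals on these arrays known, so their levels and differences are given as a description, with no test. All plants were of the Col-0 accession, grown on phytagar plates at 24 °C under continuous light of 100 µmol per square metre per second after 4 days of stratification, and were 10 days old when treatment began. The groups were plants taken from growth conditions (0 h) and plants moved to 4 °C and harvested after 1 h, 24 h or 7 days (7 d), with 2 arrays each, 8 in all. Light in the cold was dimmer, about 25 in the same unit, so cold and lower light cannot be told apart, nor can the week at 4 °C and the greater age of those plants. No warm plants of a later age were analysed here. Nor were plants moved without cooling, so cold and the move itself cannot be told apart either.

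An EF hand is a helix-loop-helix fold that binds a calcium ion in its loop. Proteins that carry EF hands, such as calmodulin and its relatives, change shape when calcium binds and pass the signal on to partner proteins, or buffer the ion. Cooling of plants is known to set off a rapid and brief rise of free calcium in the cytosol, and genes for several calcium sensors are known to respond to touch and cold. In Arabidopsis calmodulin-like proteins form a large family with several EF hands each and few other domains.

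Values are MAS5 signals, for which the authors' scaling sets the trimmed mean of each array near 100. Replicate arrays correlated at r between 0.956 and 0.972 over the 15017 tested probe sets (genes are not replicates of each other). As a check of the treatment, COR15A, a cold-regulated chloroplast protectant, stood at 4523 and 7758 after 24 h at 4 °C, against 31.6 and 19.7 at 0 h. STZ, a zinc finger repressor of early stress signalling, stood at 375 and 457 after 1 h, against 41.2 and 28.4 at 0 h. For whole plants the list of shoot markers was represented by 1 of 5 entries, LHCB4.2, an antenna protein of photosystem II, and the list of root markers by 3 of 5 entries, and none of them was at 0. The shoot marker ranged over 2565 to 3965 at 0 h, 3480 to 3528 at 1 h, 1398 to 1754 at 24 h and 2265 to 2745 at 7 d. The summed root markers ranged over 2259 to 2450 at 0 h, 1813 to 2067 at 1 h, 1042 to 1822 at 24 h and 818 to 1086 at 7 d. Nearly all of that sum was PYK10, a beta-glucosidase gene, which fell by 1.40 on the log2 scale at 7 d against 0 h (limma adjusted p = 0.00386). The expansin genes EXPA7 and EXPA18 differed by -0.35 and 0.38 (limma adjusted p = 0.419 and 0.387). The ratio of 3' to 5' actin signal, a sign of RNA integrity, was 2.95 to 3.84 at 0 h, 3.95 to 5.32 at 1 h, 3.44 to 6.53 at 24 h and 3.83 to 5.91 at 7 d. The part of tissue make-up and RNA integrity in the results that follow was not tested. In whole plants, fewer cells of a type and less RNA per cell cannot be told apart.

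AT4G27280 was high at 1 h and low at every other time. Its signal was 102 and 70.0 at 0 h, 280 and 311 at 1 h, 70.3 and 57.1 at 24 h, and 81.6 and 75.4 at 7 d. Both 1 h arrays lay above all 6 other arrays, and the arrays of the other 3 times lay close together. The lower 1 h array was 2.76 times the highest of those 6 arrays. Of the 15017 tested probe sets, 914 had both 1 h arrays above the 6 others, and 12, this one included, had a gap at least as wide on the scale of log2(signal + 8). The mean was 295 ± 21.4 at 1 h, against 85.8 ± 22.3 at 0 h (SD, n = 2 each), and the ratio of these means was 3.44. The difference in log2(signal + 8) was 1.71 ± 0.21 (SE of the limma fit), and 24 probe sets had a more positive one. Leaving out 0 h replicate 1 or 0 h replicate 2 gave 1.96 or 1.47.

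By 24 h the AT4G27280 signal was low again, with 1 array just inside the range of 0 h and 1 below it. Its mean was 63.7 ± 9.39 at 24 h, against 295 ± 21.4 at 1 h (SD, n = 2 each), a log2 difference of -2.09 ± 0.21 (SE). Among the tested probe sets 155 had a more negative difference for 24 h against 1 h. The arrays at 24 h, at 70.3 and 57.1, overlapped those at 0 h, at 102 and 70.0. The log2 difference for 24 h against 0 h was -0.37 ± 0.21 (SE), which became -0.13 without 0 h replicate 1 and -0.62 without 0 h replicate 2. Set in order, the means ran from 63.7 at 24 h through 78.5 at 7 d and 85.8 at 0 h up to 295 at 1 h. Of the 3 lower ones, the arrays of 24 h and of 7 d each overlapped those of 0 h.

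After a week AT4G27280 stood at 78.5 ± 4.38, against 85.8 ± 22.3 at 0 h (SD, n = 2 each), and the 2 arrays at 7 d lay between those at 0 h. The log2 difference for 7 d against 0 h was -0.10 ± 0.21 (SE). Without 0 h replicate 1 it turned to 0.15, and without 0 h replicate 2 it was -0.34. Against 24 h the 7 d arrays were slightly higher without overlap, by 0.28 ± 0.21 (SE).

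AT2G41090 had another course, with little change at 1 h, its lowest signal at 24 h and its highest at 7 d. The signal was 1283 and 1033 at 0 h, 1146 and 912 at 1 h, 593 and 850 at 24 h, and 2401 and 2358 at 7 d. Both 7 d arrays lay above all 6 other arrays, and both 24 h arrays lay below the remaining arrays. The lower 7 d array was 1.84 times the highest of the 6 others. Of the tested probe sets 1398 had both 7 d arrays above the 6 others, and 52, this one included, had a gap at least as wide on the scale of log2(signal + 8).

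In the first hour the signal of AT2G41090 did not move beyond the spread of its arrays. It averaged 1029 ± 165 at 1 h, against 1158 ± 177 at 0 h (SD, n = 2 each), the arrays overlapped, and the log2 difference was -0.17 ± 0.22 (SE). After 24 h the mean was 721 ± 181 (SD, n = 2), a log2 difference of -0.69 ± 0.22 (SE) against 0 h and of -0.52 ± 0.22 (SE) against 1 h. These arrays lay below those of 0 h and 1 h, but the gap was narrow, with 850 at 24 h beside 912 at 1 h and 1033 at 0 h. The 24 h arrays also differed from each other. Without 24 h replicate 1 the differences were -0.43 against 0 h and -0.26 against 1 h, and without 24 h replicate 2 they were -0.95 and -0.78. Replicate 1 at 24 h had the lower AT2G41090 signal and, at 6.53, the highest actin ratio of the 8 arrays. Its ratio of 3' to 5' GAPDH signal was at neither end of the range of the 8 arrays, 1.22 to 1.45. At 0 h and 1 h the array with the higher actin ratio had the higher AT2G41090 signal. At 7 d it had the slightly lower one, 2358 against 2401. Whether RNA integrity had a part in the 24 h difference was not tested.

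After 7 d AT2G41090 averaged 2380 ± 30.4, against 1158 ± 177 at 0 h (SD, n = 2 each), a ratio of 2.05. The log2 difference was 1.04 ± 0.22 (SE), and 622 probe sets, 4.14% of those tested, had a more positive one. It was 0.89 to 1.20 with any 1 array of these groups left out, and 0.70 after quantile normalization. The contrast with 24 h was wider, since the signal had been lowest then. The mean at 7 d was 3.30 times that at 24 h, the log2 difference was 1.73 ± 0.22 (SE), and 68 of 15017 probe sets had a more positive one. In order, the means of AT2G41090 ran from 721 at 24 h through 1029 at 1 h and 1158 at 0 h to 2380 at 7 d. The neighbours 1 h and 0 h overlapped, and the gap between the nearest arrays of 24 h and 1 h, 850 and 912, was smaller than that between the 2 arrays at 24 h, 593 and 850.

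**Figure D1:**
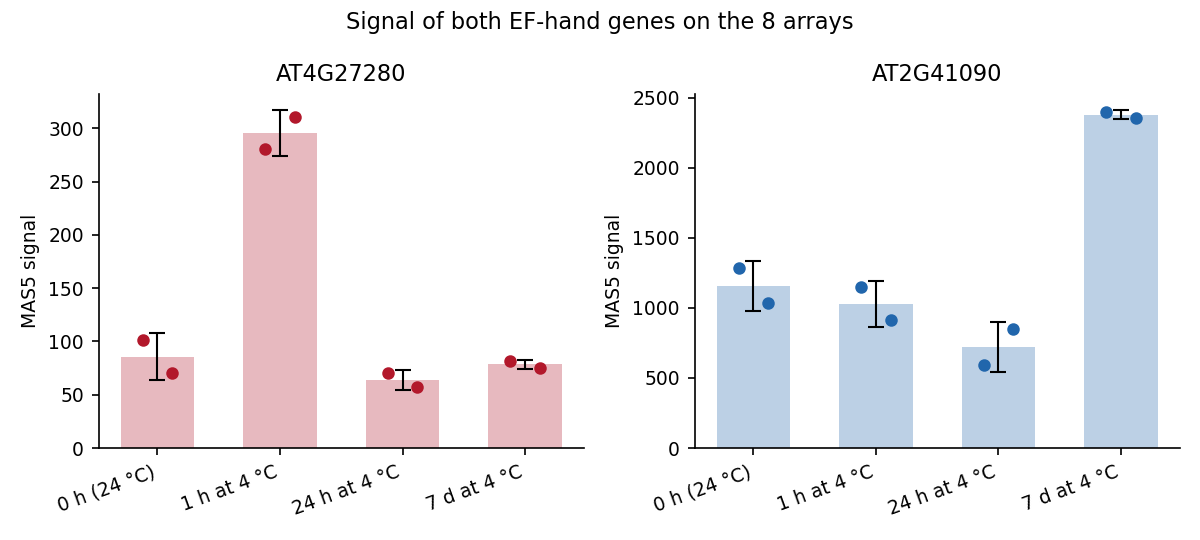
MAS5 signal (linear scale, arbitrary units) of AT4G27280 and AT2G41090 by time at 4 °C. Bars are means of 2 arrays, error bars the SD and points the single arrays: AT4G27280 stood at 280 and 311 at 1 h and at 102 or lower on the other arrays, while AT2G41090 stood at 2401 and 2358 at 7 d and at 1283 or lower on the others.

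The 2 genes thus peaked at different times. Over the 8 arrays their log2(signal + 8) values had a Pearson correlation of -0.09. The differences were 1.71 for AT4G27280 and -0.17 for AT2G41090 at 1 h against 0 h, and -0.10 and 1.04 at 7 d against 0 h. Those of -0.17 and -0.10 were within their SE, so no direction is read from them. Both had their lowest mean at 24 h, as did 32.4% of all tested probe sets, and for AT4G27280 the 24 h arrays overlapped those of 0 h.

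Other genes with a similar course were sought by Pearson correlation over the 8 arrays, among 8027 further named and tested genes with an unshared probe set. The 5 genes nearest to AT4G27280 were AT3G52800 (r = 0.977), AT1G19380 (r = 0.970), AT2G20670 (r = 0.969), AT1G19020 (r = 0.968) and AT1G25400 (r = 0.965). AT1G19380 gave 206 and 251 at 1 h, against 106 and 76.9 at 0 h. AT1G25400 gave 106 and 101 at 1 h, against 24.5 and 28.8 at 0 h. For both genes the 1 h arrays lay above those of 0 h without overlap, as they did for AT4G27280. The size of the difference varied among the 5, with AT3G52800 at 330 and 331 at 1 h, against 206 and 162 at 0 h. AT2G20670 went further down at 24 h, to 36.3 and 17.6, against 69.8 and 57.1 at 0 h.

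The genes nearest to AT2G41090 were AT3G62400 (r = 0.986), AT1G26940 (r = 0.982), AT3G51140 (r = 0.974), AT4G00955 (r = 0.967) and AT1G65500 (r = 0.965). AT1G26940 stood at 64.7 and 75.0 at 7 d, against 33.5 and 26.2 at 0 h. AT3G51140 stood at 401 and 411 at 7 d, against 268 and 267 at 0 h. AT3G62400, with the highest correlation, moved less, with 360 and 334 at 7 d, against 281 and 254 at 0 h. All these genes were picked for their likeness on the same 8 arrays, and 4 times with 2 arrays each give a profile few degrees of freedom.

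**Figure D2:**
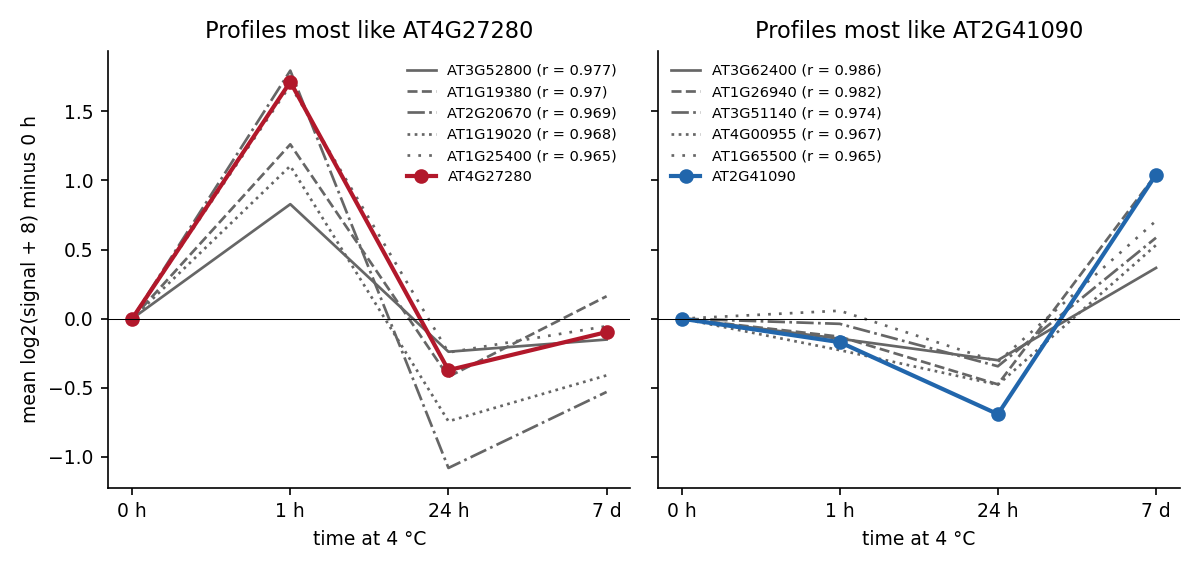
Mean log2(signal + 8) minus that at 0 h, by time at 4 °C, for AT4G27280 (left) and AT2G41090 (right) as coloured lines and, in grey, the 5 genes with the highest Pearson correlation over the 8 arrays. The genes on the left peak at 1 h, and those on the right are lowest at 24 h and highest at 7 d.

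By the order of genes in the RefSeq table of assembly TAIR10.1, AT2G41090 on chromosome 2 lies next to TCH3, a touch-inducible calmodulin-like gene, and near CAM2, a calmodulin gene. Neither has an unshared probe set in the annotation used here, and other probe sets were not examined for them. Whether related transcripts add to the signal of 267076_at was not tested. None of the nearest tested genes around AT2G41090 was called higher at 7 d against 0 h. Of all tested probe sets 9.18% were called higher and 10.7% lower in that comparison, so this says little about so few genes. AT2G41120, 4 genes away, was at 34.1 and 27.7 at 7 d, against 89.5 and 83.6 at 0 h. It fell by 1.29 ± 0.27 on the log2 scale (SE, limma adjusted p = 0.00688), while the AT2G41090 signal was higher at 7 d. Without 7 d replicate 2 its adjusted p was 0.0591 by limma. AT2G41080, 2 genes away, and AT2G41160, 8 genes away, differed by 0.67 and 0.07 at 7 d against 0 h (limma adjusted p = 0.0750 and 0.861). EEL, a bZIP transcription factor gene, was too dim to be tested.

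Around AT4G27280 on chromosome 4, at 1 h against 0 h, none of the 3 tested neighbours passed, with log2 differences of 0.38 for WES1, an enzyme gene that conjugates auxin to amino acids, -0.49 for AT4G27270 and 0.13 for AT4G27300 (limma adjusted p = 1 for each). In that comparison 0.313% of all tested probe sets were called higher and 0.00666% lower, so the lack of calls says little about these neighbours. AT4G27290 was too dim to be tested. AT4G27300 was at 82.7 and 52.7 at 24 h, against 195 and 178 at 1 h and 176 and 163 at 0 h. It fell by 1.26 ± 0.22 on the log2 scale at 24 h against 0 h (SE, limma adjusted p = 0.00143) and fell by 1.39 ± 0.22 against 1 h (adjusted p = 0.00073). Both calls held in all 16 other settings.

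To set the pair beside other genes of calcium signalling, 7 lists were assembled by locus, of small EF-hand proteins related to AT4G27280, calmodulins, calmodulin-like proteins, calcineurin B-like sensors, calcium-dependent protein kinases, calmodulin-binding transcription activators, and calcium pumps and exchangers. A search of gene names added AT4G35987, a calmodulin N-methyltransferase. Apart from the pair, 37 of 121 entries had an unshared probe set, and 22 passed the filter on dim probe sets, of which 17 were calmodulin-like. No calmodulin, calcineurin B-like sensor, calcium-dependent kinase, pump or exchanger of the lists had a probe set with a single gene symbol entry. These families are thus absent through that rule on the annotation. Whether other probe sets on the array measure them was not examined. The 15 calcium genes that did not pass had signals of 0.27 to 34.1 with a median of 2.31. Since a gene could pass through a time at which it was high, the 22 do not stand for the whole family.

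At 1 h none of the 22 other genes passed the limma test, at 0 higher and 0 lower, where 0.313% of all tested probe sets were called higher and 0.00666% lower. The count at an unadjusted p under 0.05 was 3, or 13.6%, beside 4.56% of all tested probe sets, and each of the 16 other settings also called 0. The median log2 difference was 0.00, beside -0.01 over all tested probe sets. AT3G25600, listed as calmodulin-like and singled out after its values were seen, came nearest to AT4G27280. It was at 175 and 202 at 1 h, against 104 and 68.9 at 0 h, and it alone of the 22 had both 1 h arrays above all 6 others. Its log2 difference was 1.08 ± 0.22 (SE, limma adjusted p = 0.0858, and 0.062 to 0.631 over the other settings). AT2G46600, the only measured relative of AT4G27280 on the list of small EF-hand proteins, differed by 0.30 ± 0.18 at 1 h (SE, limma adjusted p = 1).

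At 24 h against 0 h, 3 of the 22 rose and 5 fell, where 11.8% of all tested probe sets were called higher and 15.3% lower. The median was -0.34, beside -0.06 over all tested probe sets. AT1G73630, listed as calmodulin-like, was at 255 and 221 at 24 h, against 66.3 and 68.4 at 0 h, and rose by 1.71 ± 0.20 (SE, limma adjusted p = 0.000115). AT2G46600 was at 607 and 558 at 24 h, against 373 and 383 at 0 h, and rose by 0.61 ± 0.18 (adjusted p = 0.0265). The third riser was AT3G10300 (0.78). The genes that fell were AT3G03000 (-1.22), CML42 (-1.15), AT1G62820 (-0.93), AT5G39670 (-0.87) and AT4G35987 (-0.85). AT2G41090 itself, at -0.69, lay within the range of these 22 genes, which was -1.22 to 1.71. The call of AT1G73630 alone held in all 16 other settings, and 3, 4, 5 and 4 genes were called without 0 h replicate 1, 0 h replicate 2, 24 h replicate 1 and 24 h replicate 2. That of AT2G46600 ended when any 1 of these arrays was left out (limma adjusted p = 0.0658 to 0.107).

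For 24 h against 1 h, the interval in which the AT4G27280 signal dropped, 2 of the 22 rose and 5 fell, where 11.3% of all tested probe sets were called higher and 14.7% lower. The fallers were AT5G39670 (-1.50), CML30 (-1.19), CML42 (-1.19), AT3G25600 (-0.96) and AT1G62820 (-0.89), and the risers AT1G73630 (1.42) and AT3G10300 (0.71). None of these fell as far as the -2.09 of AT4G27280. AT5G39670, listed as calmodulin-like, was at 20.9 and 15.2 at 24 h, against 74.6 and 57.0 at 1 h (limma adjusted p = 0.00236). Its call and that of AT1G73630 held in all 16 other settings, and 4 genes were called without 1 h replicate 1 or without 1 h replicate 2. That of AT3G25600 ended without 1 h replicate 2 (limma adjusted p = 0.0635).

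At 7 d against 0 h, 4 of the 22 rose and 2 fell, where 9.18% of all tested probe sets were called higher and 10.7% lower. The median was 0.13, beside -0.05 over all tested probe sets. AT3G47480, listed as calmodulin-like, was at 116 and 83.8 at 7 d, against 27.7 and 31.1 at 0 h, and rose by 1.51 ± 0.28 (SE, limma adjusted p = 0.00366). The other risers were AT5G39670 (0.90), AT1G73630 (0.86) and AT2G46600 (0.64), and the fallers CML30 (-1.27) and AT2G27480 (-1.03). Only the call of AT3G47480 held in all 16 other settings, and 2, 2, 3 and 2 genes were called without 0 h replicate 1, 0 h replicate 2, 7 d replicate 1 and 7 d replicate 2. For AT2G46600 the adjusted p by limma reached 0.158 without 7 d replicate 1.

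For 7 d against 24 h, where AT2G41090 differed by 1.73, 4 of the 22 rose and 1 fell, while 4.83% of all tested probe sets were called higher and 4.46% lower. AT3G47480 was at 116 and 83.8 at 7 d, against 17.4 and 14.0 at 24 h, and rose by 2.18 ± 0.28 (SE, limma adjusted p = 0.00144). AT5G39670 was at 90.3 and 71.2 at 7 d, against 20.9 and 15.2 at 24 h, and rose by 1.77 ± 0.28 (adjusted p = 0.00404). AT4G35987 (1.04) and AT1G18210 (0.81) also rose, and AT1G73630 fell by 0.85. Of these 5 calls only that of AT3G47480 held in all 16 other settings, and that of AT4G35987 ended in 10 of them. Without 24 h replicate 1, 24 h replicate 2 or 7 d replicate 1 the calls numbered 2, 2 and 1, and that of AT5G39670 ended without 7 d replicate 1 (limma adjusted p = 0.0547). The order of AT2G41090, highest at 7 d and lowest at 24 h, was shared by 6 of the 22 genes and by 7.66% of all tested probe sets. These were AT1G12310, AT1G18210, CML43, AT5G39670, AT3G47480 and AT4G35987, picked out after their values were seen.

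**Figure D3:**
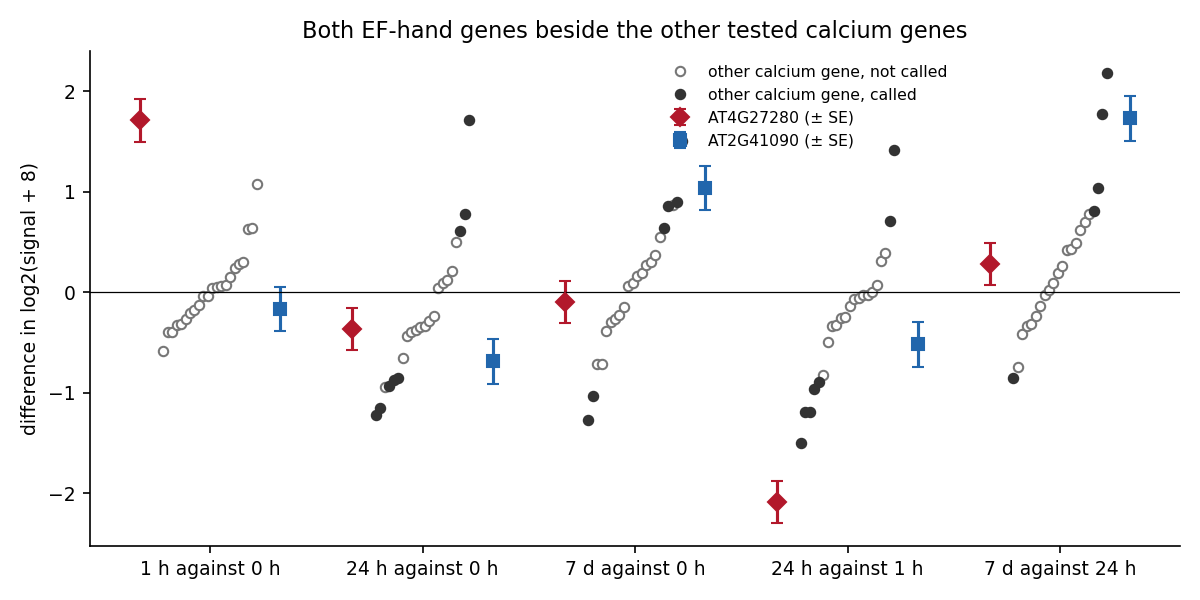
Difference in log2(signal + 8) for the 5 comparisons, with AT4G27280 (diamonds) and AT2G41090 (squares) shown with the SE of the limma fit. Circles are the other 22 tested calcium genes in order of size, filled where the limma adjusted p was under 0.05: AT4G27280 lies above all of them at 1 h against 0 h, and below all of them at 24 h against 1 h.

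**Figure D4:**
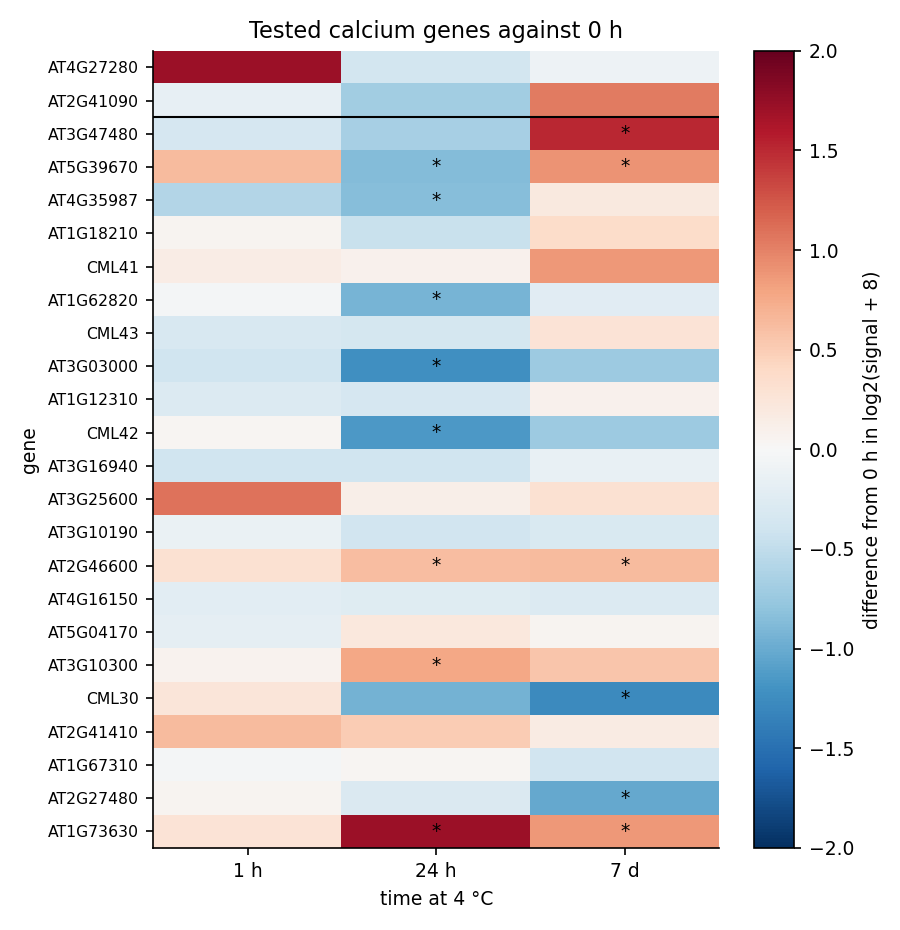
Difference from 0 h in log2(signal + 8) after 1 h, 24 h and 7 d at 4 °C for AT4G27280 and AT2G41090 (top rows) and the other 22 tested calcium genes, ordered by the difference of 7 d against 24 h. Asterisks mark a limma adjusted p under 0.05 and were not assigned to the top 2 rows: none stands at 1 h, and 8 and 6 stand at 24 h and 7 d.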

How the data were processed

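The authors deposited 1 linear signal intensity for each probe set and array. MAS5, which summarises perfect-match and mismatch probes, is named in the submitters' processing notes. The sources used here give neither its version nor its settings or detection calls. The table holds 22810 probe sets, of which 64 controls were left out of the tests. Probe sets were paired with genes through the platform annotation, and symbols were updated from a RefSeq gene table of TAIR10.1 used for names and neighbour order only. No sequences are shown.

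Signals were transformed as log2(signal + 8), which shrinks the differences of dim genes. The test took the 15017 probe sets whose signal exceeded the 40th percentile of the array on 2 or more arrays. One limma 3.58.1 model in R 4.3.3 had a mean for each group, 4 residual degrees of freedom and an intensity trend, and was tested on simulated data. That simulation used independent noise and differences wider than nearly all those of the calcium genes called here, so it does not cover such smaller ones. Two-sided p-values received a Benjamini-Hochberg adjustment over 15017 probe sets, with calls under 0.05. Whether the arrays within a group stem from separate cultures is not given by the labels, so p-values reflect the spread between these samples alone, and that spread may be technical. Precision is limited by the number of arrays, with a median SE of 0.236 for 1 h against 0 h.

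The 2 genes and the lists were chosen with earlier results of these data known. The genes named are these 2, the measured relatives of AT4G27280, up to 4 called genes with the largest change from each other calcium list, 5 genes of like profile and 2 measured neighbours on each side for both, and cold-response genes as a check. Where a count was 5 or fewer, its other genes were named after their values were seen. Where several probe sets measured 1 gene, that of the highest mean was used. Of the 33 measured calmodulin-like genes, the gene table gives the family number for 8, and the others were listed by locus from the family's published numbering.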

Additional observations from a re-analysis of the deposited data

How the results depend on the processing

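The alternatives were pseudocounts of 1 and 32, quantile normalization, equal medians, no filter on dim probe sets, no intensity trend, 4 arrays only, a replicate block and leaving out each array, and for the other single genes and the counts between cold times they were chosen after seeing the data. With a pseudocount of 32 the AT4G27280 difference was 1.49 at 1 h against 0 h and -1.78 at 24 h against 1 h. Quantile normalization gave 0.70 for AT2G41090 at 7 d against 0 h. With 1 array left out, AT4G27280 ranged over 1.47 to 1.96 at 1 h, -0.62 to -0.13 at 24 h and -0.34 to 0.15 at 7 d against 0 h, and -2.22 to -1.95 for 24 h against 1 h. AT2G41090 ranged over -0.95 to -0.43 at 24 h and 0.89 to 1.20 at 7 d against 0 h, -0.78 to -0.26 for 24 h against 1 h and 1.48 to 1.99 for 7 d against 24 h. The count of other calcium genes called, with 1 array left out, was 3 to 6 at 24 h and 2 to 7 at 7 d against 0 h, 4 to 7 for 24 h against 1 h and 1 to 4 for 7 d against 24 h. The cause was not tested. Equal medians moved the median difference of all tested probe sets for 24 h against 1 h to 0.035, against -0.079 without them, turned the direction of no call of the genes named, and ended those of AT5G39670 and AT4G35987 at 24 h against 0 h (limma adjusted p = 0.0632 and 0.059). The sample titles carry the letters A and B with replicate numbers 1 and 2 at each time, but do not say whether these pair the samples. Deviations of same-numbered arrays correlated at 0.243 to 0.403 among 0 h, 1 h and 24 h, and at -0.209 to -0.026 between these and 7 d. Whether the early samples form paired series was not tested. With the replicate block the calls numbered 0 at 1 h, 8 at 24 h and 6 at 7 d against 0 h, 7 for 24 h against 1 h and 6 for 7 d against 24 h, where 5 were called without it. The members' differences do not change under that block, which is balanced.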
